A study of Mus musculus with 6 samples.

Results

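The regions described here are 374 places on the mouse autosomes that the later part of a deposited list of Cbp peaks names. The list held 4012 rows of 400 bp in 3 blocks of 2422, 806 and 784 rows, where a new block begins each time the chromosome order restarts. The regions come from the second and the third block, which together hold 1590 rows. Of these, 44 rows on chromosomes X and Y, 410 autosomal rows that start below 4 Mb and 303 rows at 85 to 91 Mb of chromosome 1 were left out. The remaining 833 rows (419 and 414 of the second and the third block) were merged where they shared 1 bp or more. The rule used the order and position of rows and no read count. The list itself belongs to the Cbp sample, however, so that an excess of Cbp reads inside it is described here and is no independent evidence. Positions are those of mm9, the build that the submitters' processing notes name.

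The reads came from chromatin immunoprecipitation followed by sequencing (ChIP-seq) in untreated BM-HPC cells, a blood progenitor and stem cell line made from mouse marrow of the strain C57BL/6-cast. Their medium held human IL-6 at 10 ng/ml and stem cell factor at 100 ng/ml, and they were crosslinked with 1% formaldehyde. One library was made with a rabbit polyclonal antibody against Cbp, and 1 with rabbit IgG as the control. RNA samples of sorted LSK marrow cells from Cbp wt and Cbp Mx mice (4 in all) also belong to the series and were not analysed here.

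Cbp (CREB-binding protein) is an acetyltransferase that does not bind a DNA sequence of its own. Transcription factors bring it to promoters and enhancers, where it acetylates histones and other proteins, and blood stem cells depend on its dose. A rabbit IgG precipitation has no such target, and serves to show where reads gather without one.

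There were 9770169 Cbp reads, and 3.88% of them repeated an interval of the same start and end. Among 8068592 IgG reads the share of such copies was 14.6%. Counts below are of distinct intervals, each counted once by its midpoint, unless all copies are named. Ratios of distinct intervals were scaled by 1.36, the number of distinct Cbp intervals per IgG interval outside the list. Where all copies were counted, ratios and tests were scaled by 1.21, the same number with copies kept. With 1 library per antibody there were no replicates. All intervals in brackets are exact 95% intervals, and all tests compare these 2 libraries, so that both cover counting error only and no variation between cultures or precipitations. Reads were counted without molecular identifiers, so that copies are not independent molecules. Intervals and tests on counts with copies treat each copy as independent, so such intervals can be narrower than the counting error.

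Each of the 374 regions held rows of both later blocks, so that neither block named a place among them that the other left out. In 315 regions 1 row of each block was merged. Their starts differed by a median of 24 bp (quartiles 6 and 89), and the row of the third block lay to the right in 155, to the left in 151 and at the same start in 9. The other 59 regions held 3 to 6 rows. The regions were 400 to 1280 bp wide with a median of 445 bp, and covered 188792 bp in all. None shared a base with a row of the first block.

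In sum the regions held Cbp and IgG reads in nearly the proportion of the libraries. The 374 regions had 8913 Cbp and 6487 IgG intervals, a scaled ratio of 1.01 (0.978 to 1.04). Single regions nonetheless differed widely from this balance. They held 7 to 322 Cbp intervals with a median of 15, and 0 to 322 IgG intervals with a median of 7. The median of the regions' own ratios was 1.59 (quartiles 0.935 and 2.94), where the 9 regions without an IgG interval were set at 3 IgG intervals, the number that a count of 0 allows. Of the 374 regions, 258 (69.0%) leaned to Cbp, and 116 lay at or below an equal share. This was less than over all 3020 distinct regions of the list (89.3%) or its first block under the same position filters (97.4%).

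The 2189 first-block regions under the same position filters stood at a ratio of 3.27 (3.18 to 3.37). Set against them, the ratio of the later regions was 0.309 times as large (0.296 to 0.322, exact conditional odds ratio on intervals). The median first-block region held 10 Cbp and 2 IgG intervals, against 15 and 7 in the later regions.

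**Figure D1:**
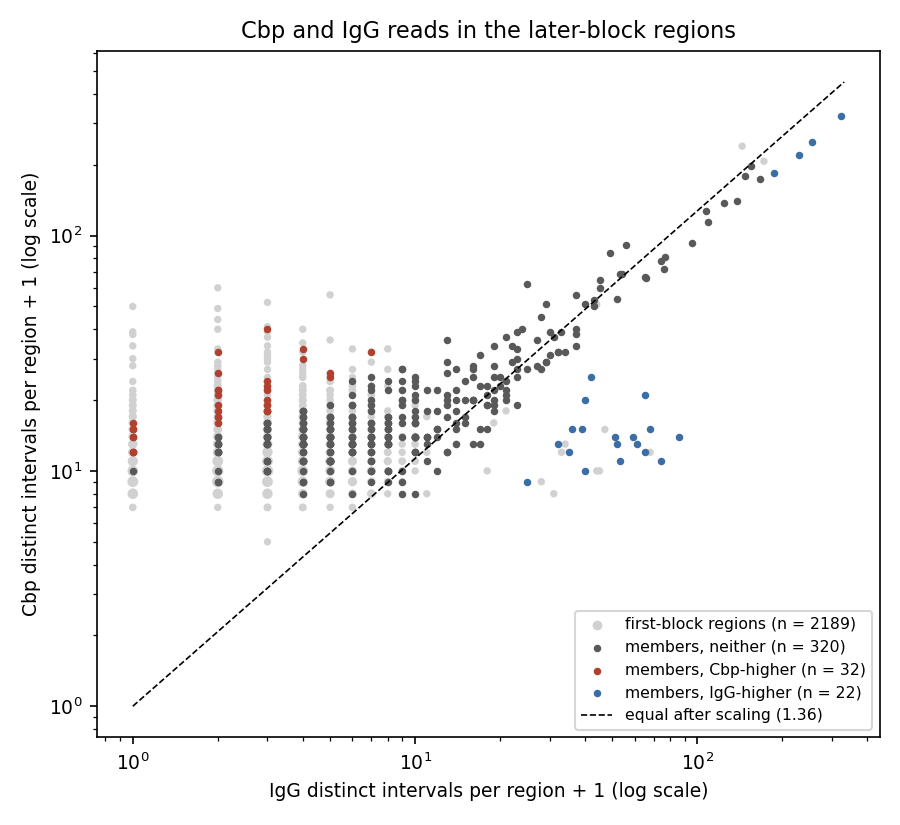
Cbp against IgG distinct intervals per region, each plus 1, on log axes. Dark, red and blue points are the 374 later-block regions by call, grey points the 2189 first-block regions (larger where several share a point), and the dashed line marks equal depth after scaling. The Cbp-higher regions sit at 0 to 6 IgG intervals, the regions of neither call lie nearer the line, and the IgG-higher ones fall into a group far below it and a few at the upper right.

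By the exact binomial test, adjusted by the Benjamini-Hochberg method over all 3020 distinct regions of the list, 32 of the 374 regions (8.56%) had more Cbp than IgG reads at a threshold of 0.05, and 9 at a threshold of 0.01. Over the whole list, at 0.05, 11.3% passed in this direction, and the share at 0.01 is not given here. More IgG than Cbp reads were called in 22 regions (5.88%), against 1.26% over the whole list, and 320 passed in neither direction. Among first-block regions under the same filters these shares were 13.8% and 0.365%. At an unadjusted p below 0.05, 70 of the 374 later regions leaned to Cbp and 26 to IgG. Of all 3020 regions, 929 and 55 did, a larger share towards Cbp and a smaller one towards IgG. By size alone, 144 of the 374 regions were 2-fold or more higher in Cbp and 18 in IgG. Of all 3020 regions of the list, 61.5% and 1.03% were. Here too, regions without an IgG interval were set at 3 IgG intervals. Such regions with few Cbp intervals could then fall short of 2-fold, so that both Cbp figures are lower bounds. With all copies counted, 52 regions were Cbp-higher and 29 IgG-higher, against 20.3% and 2.35% of the list. These held each of the 32 and each of the 22 called on distinct intervals.

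The 32 Cbp-higher regions were modest peaks without a matching signal in the control. They held 11 to 39 Cbp intervals with a median of 18, and 0 to 6 IgG intervals with a median of 1. In sum they had 636 Cbp and 48 IgG intervals, a ratio of 9.74 (7.26 to 13.3), which describes the regions as they were chosen. Copies made up 4.79% of their Cbp reads. In 8 of the 32 the control had no read.

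The largest excess lay on chr1:182780895-182781324, with 39 Cbp and 2 IgG intervals, 14.3 times the control after scaling (3.71 to 122.5), with an adjusted p of 1.58e-05 by the exact binomial test. Its nearest first-block row was 1653 bp away. Next came chr8:125222958-125223376 with 31 Cbp intervals and 1 IgG interval, 22.8 times the control (3.80 to 928.5), where the exact binomial test gave an adjusted p of 9.07e-05. On chr9:60846752-60847395 there were 32 Cbp and 3 IgG intervals, a ratio of 7.84 (2.45 to 40.0). The region chr16:32419477-32420014 held 29 and 3 intervals, and chr16:92715739-92716199 held 25 and 1. No interval in these 5 regions was shared between the libraries, and none had more than 2 copies in either. For comparison, chr1:40287280-40287742, at the median Cbp count of the 374, held 15 Cbp and 9 IgG intervals, 1.23 times the control (0.502 to 3.17), and an adjusted p of 0.881 by the exact binomial test.

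How the reads lay within a region also differed. Around the 32 Cbp-higher regions the Cbp reads formed 1 summit at the centre. The central 100 bp held 193 Cbp intervals, and the 100 bp to its left and right held 161 and 125, so that the sides had 0.741 times (0.615 to 0.894) the depth of the centre. Around the 303 regions that passed in neither direction and held under 50 IgG intervals, the summed reads of both libraries instead had a pair of summits with a dip between them. Their central 100 bp held 1024 Cbp intervals against 1531 and 1365 at the sides, a side-to-centre ratio of 1.41 (1.32 to 1.52). In the IgG library this ratio was 1.85 (1.66 to 2.06). The Cbp shape differed within this set by the IgG level: the ratio was 0.829 (0.651 to 1.06) in the 34 regions with 0 to 2 IgG intervals, 1.30 (1.17 to 1.45) in 171 with 3 to 9 and 1.71 (1.53 to 1.92) in 98 with 10 to 49. Regions with few IgG intervals thus showed no dip in the Cbp sum whether or not they were called. The difference in shape between the Cbp-higher regions and all 303 was larger than counting error in the Cbp library, at 0.524 times (0.429 to 0.641, exact conditional odds ratio). Among regions merged from 1 row of each block, the Cbp ratio was 0.698 (0.567 to 0.861) in 24 Cbp-higher regions and 1.55 (1.43 to 1.68) in 256 of neither call. The regions had been called on Cbp reads that also enter this shape, and the sets were chosen after their values were seen.

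The 2 highest 50 bp bins of these 303 regions lay 200 bp apart in both libraries, which is the length of nearly every deposited interval. The same spacing was found in both libraries around the 21 regions with 50 or more IgG intervals outside a stretch of chromosome 11, and in the IgG library around the 12 regions of that stretch. It was also present in the mean of the first-block regions, where the side-to-centre ratio was lower, at 1.17 (1.14 to 1.21) in Cbp. Since all 374 regions together stood at 1.37 (1.30 to 1.45), the later regions exceeded the first block 1.17 times (1.10 to 1.24) in Cbp and 1.57 times (1.43 to 1.73) in IgG. The deposited intervals carry no strand, so the part of each strand in a pair of summits was not tested.

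**Figure D2:**
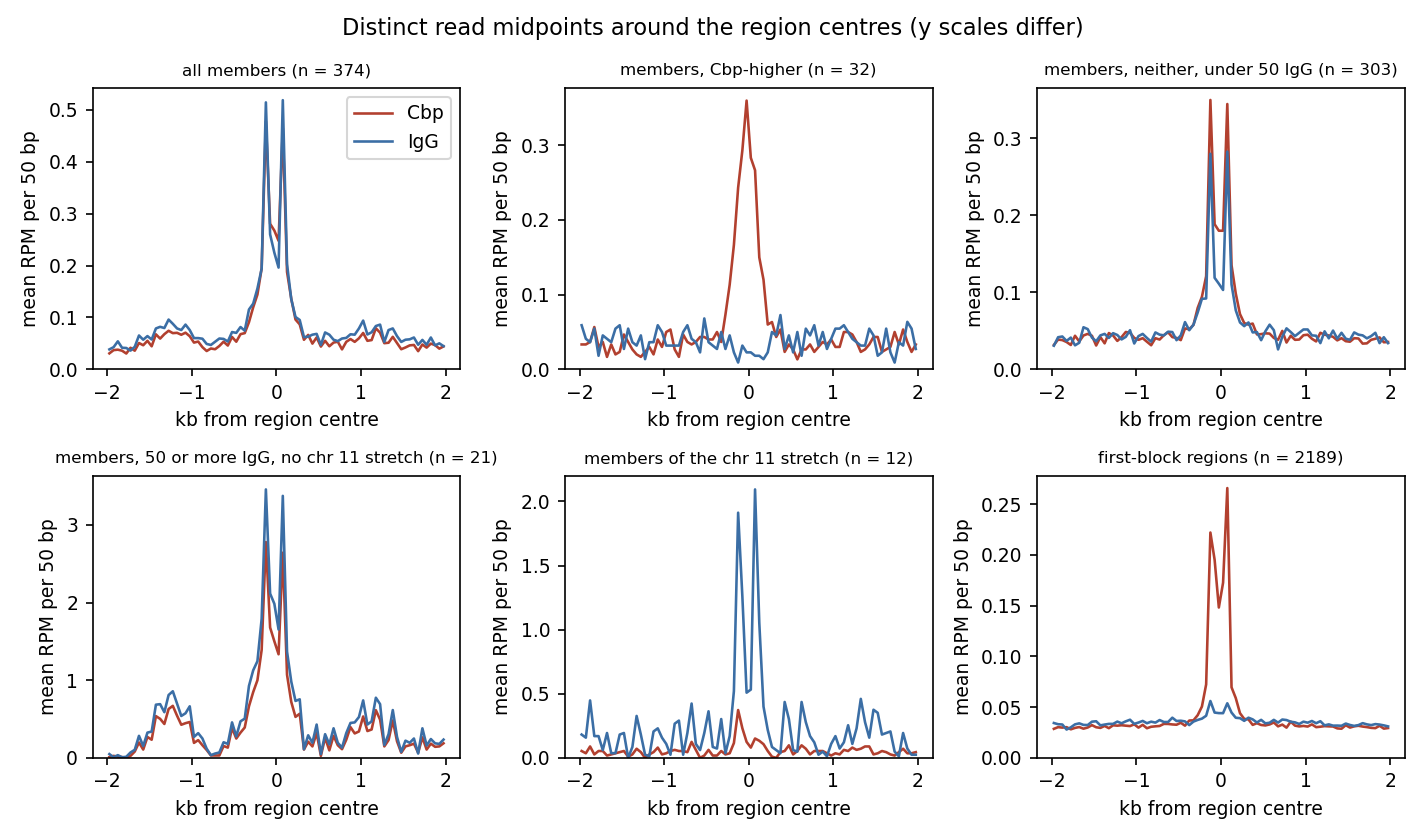
Mean distinct midpoints per 50 bp and region, in RPM (reads scaled to the size of each library), by distance in kb from the region centre, for 5 sets of later regions and for the first block; the vertical scales differ. The 32 Cbp-higher regions show 1 Cbp summit where the IgG line is lower than around, while the 303 regions of neither call show a pair of summits 200 bp apart in both libraries.

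Both libraries rose steeply at the regions. Cbp depth was 47.2 intervals per kb inside the regions and 5.40 per kb at 1 to 5 kb from their edges, a ratio of 8.74 (8.50 to 8.97). IgG depth was 34.4 per kb inside and 4.47 per kb outside, a ratio of 7.68 (7.45 to 7.92). Without the 5 regions with most Cbp reads, copies counted, the IgG rise was 6.90 (6.68 to 7.14). It was 4.53 (4.35 to 4.71) without the 31 regions of 50 or more IgG intervals, and 2.50 (2.33 to 2.68) in the 176 regions with 3 to 9. Both of these latter sets were chosen by the IgG count that also enters the IgG rise. In the same order, the Cbp rise was 8.18 (7.96 to 8.42), 6.71 (6.51 to 6.93) and 5.26 (5.03 to 5.51). At first-block regions Cbp rose 5.36 times (5.28 to 5.43) over its surroundings and IgG 1.56 times (1.52 to 1.60). The control thus rose at the later regions too, somewhat less than Cbp. IgG was lower inside than around, at 0.597 times (0.438 to 0.796), in the Cbp-higher regions, and at 0.6 times (0.476 to 0.747) in the 61 regions with 0 to 2 IgG intervals, both sets being chosen for few IgG reads. The surroundings themselves were deeper than the autosomal mean of 3.61 Cbp and 2.65 IgG intervals per kb. Their Cbp-to-IgG ratio was 0.888 (0.866 to 0.910), below that of the regions.

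Sorted by the control, the regions ran from regions with few control reads to stacks seen in both libraries. The ratio falls along this order in part because IgG reads set it. The 61 regions with 0 to 2 IgG intervals had a ratio of 7.87 (6.28 to 9.98), and the 176 with 3 to 9 had 1.91 (1.77 to 2.06). The 106 with 10 to 49 stood at 0.873 (0.825 to 0.924), and the 31 with 50 or more at 0.663 (0.630 to 0.697). The Cbp level did not fall along this order: its median was 13 intervals in the first and second classes, 21.5 in the next and 71 in the last. Across the 374 regions the 2 counts rose together, with a Pearson's r of 0.66 on the scale log2(count + 0.5) and a Spearman's rho of 0.51. These are descriptions over regions that share both libraries and differ in width.

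Identical intervals in the 2 libraries followed the same order. Of the distinct Cbp intervals in the 237 regions with under 10 IgG intervals, 2.36% had the same start and end as an IgG interval. The share was 20.5% in the class with 10 to 49 and 67.8% in the class with 50 or more. In the surroundings of all regions it was 6.41%, and in first-block regions 1.75%. Such a share also rises with the number of IgG intervals on the same bases, a part that was not tested.

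**Figure D3:**
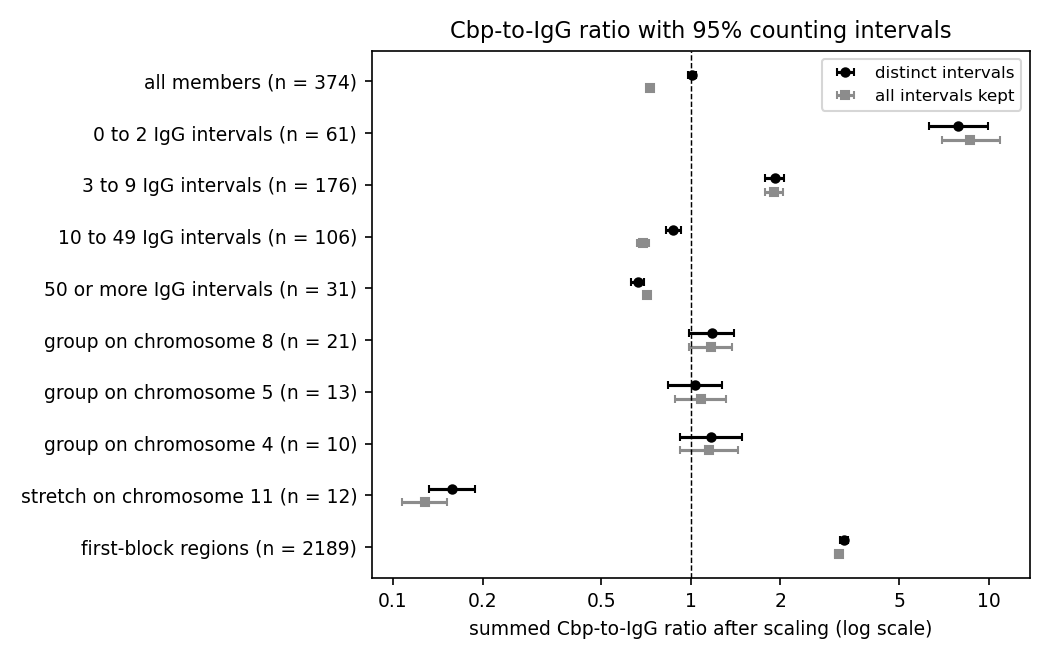
Summed Cbp-to-IgG ratio on a log axis, with exact 95% counting intervals as bars, for distinct intervals (black) and with all copies counted (grey). The ratio falls from 7.87 to 0.663 between the classes with fewest and most IgG intervals, and 12 regions of 1 stretch on chromosome 11 stand lowest at 0.158.

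With all copies counted, a few places held nearly all the reads. The regions then had 82044 Cbp and 92293 IgG reads, a ratio of 0.732 (0.725 to 0.739), so that the balance turned towards IgG. The share of copies was 89.1% (88.9 to 89.3) in Cbp and 93.0% (92.8 to 93.1) in IgG. Just 5 regions, those fullest in Cbp, took 85.2% of all Cbp and 88.1% of all IgG reads. Without them the shares of copies were 35.9% and 51.0%. The ratio with all copies counted was then 0.913 (0.890 to 0.937), still below 1, and that of distinct intervals was 1.07 (1.03 to 1.10). Most regions had few copies or none: 158 of the 374 had no copy in Cbp and 149 none in IgG. An interval with 10 or more copies was found in 16 regions in Cbp and in 22 in IgG, and the 16 were all among the 22.

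In 11 regions there were 100 or more distinct intervals in both libraries. The fullest was chr2:98502717-98503116, with 35694 Cbp and 42152 IgG reads that reduced to 322 distinct intervals in each. These 322 took 80.5% of the 400 possible midpoints, and 317 were the same in both libraries. The most copied interval occurred 2912 times in Cbp and was also the most copied in IgG, where the highest number was 2549. Its neighbours chr2:98503828-98504236, chr2:98505105-98505506 and chr2:98506234-98506644 held 2875, 1338 and 14660 Cbp reads and 3458, 1270 and 16164 IgG reads. Together these 4 regions had 855 Cbp and 852 IgG intervals, and the bases around them were full as well, at 66.8 and 66.7 intervals per kb.

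On chr9:35112823-35113223 there were 15294 Cbp and 18264 IgG reads, or 250 and 253 distinct intervals, of which 247 were shared. Its surroundings were ordinary, with 31 Cbp and 25 IgG intervals over 8000 bp. The region chr4:70039027-70039430 held 183 and 186 distinct intervals and 1012 and 1122 reads. By contrast, chr15:74917009-74917569, with 197 Cbp and 154 IgG intervals, had 403 and 281 reads, and its ratio with all copies was 1.18 (1.01 to 1.38). The fullest region, chr2:98502717-98503116, had equal distinct counts in both libraries, for which the scaling by 1.36 gives a ratio of 0.735. In sum the 11 regions stood at 0.777 (0.730 to 0.827) on distinct intervals and 0.712 (0.705 to 0.719) with all copies. Counting each interval once thus gave the higher sum, but not the higher ratio in each region. For chr2:98505105-98505506 the ratio was 0.751 (0.589 to 0.958) on distinct intervals and 0.867 (0.803 to 0.937) with all copies. Why the ratios differed was not tested. Of the 11 regions, 4 were called IgG-higher, with ratios of distinct intervals from 0.709 to 0.735. With all copies counted their ratios were 0.6845 to 0.743, also below 1.

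**Figure D4:**
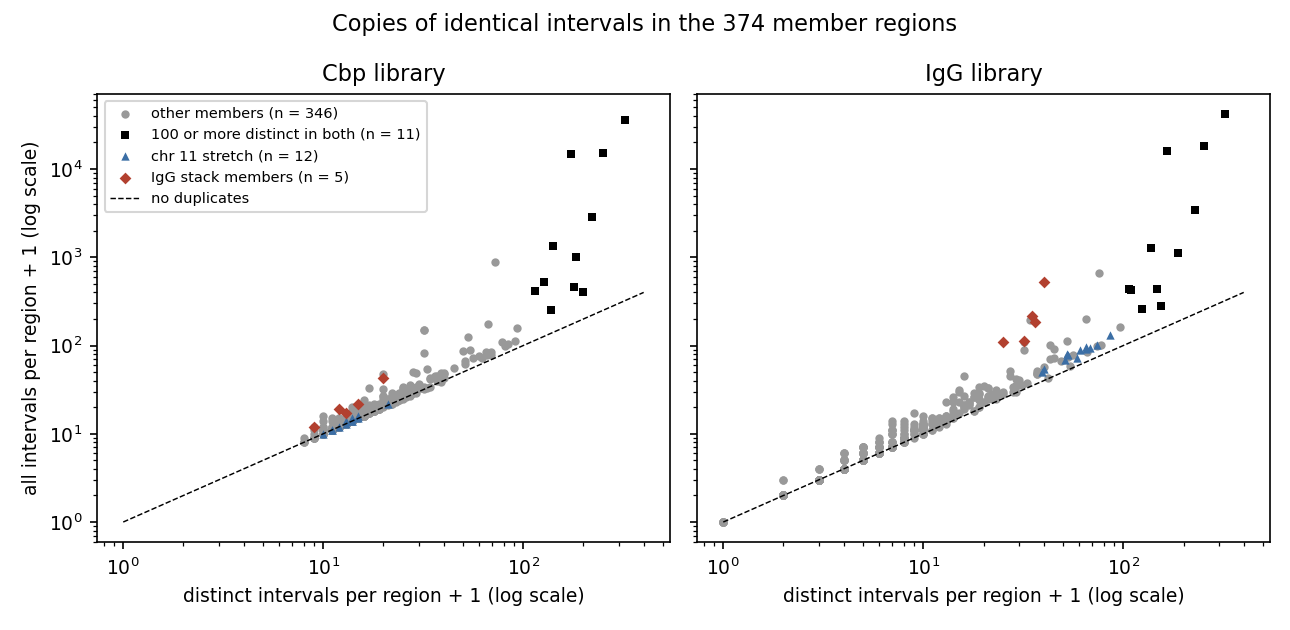
All intervals against distinct intervals per region, each plus 1, on log axes, for the Cbp (left) and IgG (right) library; the dashed line marks regions without copies. The 11 regions with 100 or more distinct intervals in both libraries rise to 35694 and 42152 reads, while 5 regions (red) leave the line in IgG far more than in Cbp.

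Of the 22 IgG-higher regions, 12 lay within 101 kb on chromosome 11, from 100644271 to 100745399. They held 9 to 20 Cbp intervals with a median of 12.5, and 38 to 85 IgG intervals with a median of 59. In sum there were 151 Cbp and 701 IgG intervals, a ratio of 0.158 (0.132 to 0.189). The strongest was chr11:100737935-100738551 with 13 Cbp and 85 IgG intervals, 0.112 times the control (0.0575 to 0.203), with an adjusted p of 5.52e-16 by the exact binomial test. The region chr11:100648393-100648804 held 10 and 73 intervals, a ratio of 0.101 (0.0463 to 0.196). No interval in the 12 regions had more than 2 copies in Cbp or more than 6 in IgG.

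The Cbp library also rose there, at 28.8 intervals per kb inside the 12 regions against 6.27 in their surroundings, a ratio of 4.60 (3.76 to 5.59). The IgG library rose 13.8 times (12.3 to 15.5), from 9.72 to 133.8 per kb. Between the 12 regions the ratio of the stretch was 0.478 (0.432 to 0.528), where first-block rows were not left out. In their surroundings, which leave out all rows of the list, it was 0.474 (0.411 to 0.546). The surplus of IgG reads was thus not confined to the listed regions. Within the regions the IgG reads had the pair of summits again, with a side-to-centre ratio of 3.03 (2.41 to 3.86). Without these 12 regions the other 362 stood at a ratio of 1.11 (1.08 to 1.15), and 10 were IgG-higher.

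**Figure D5:**
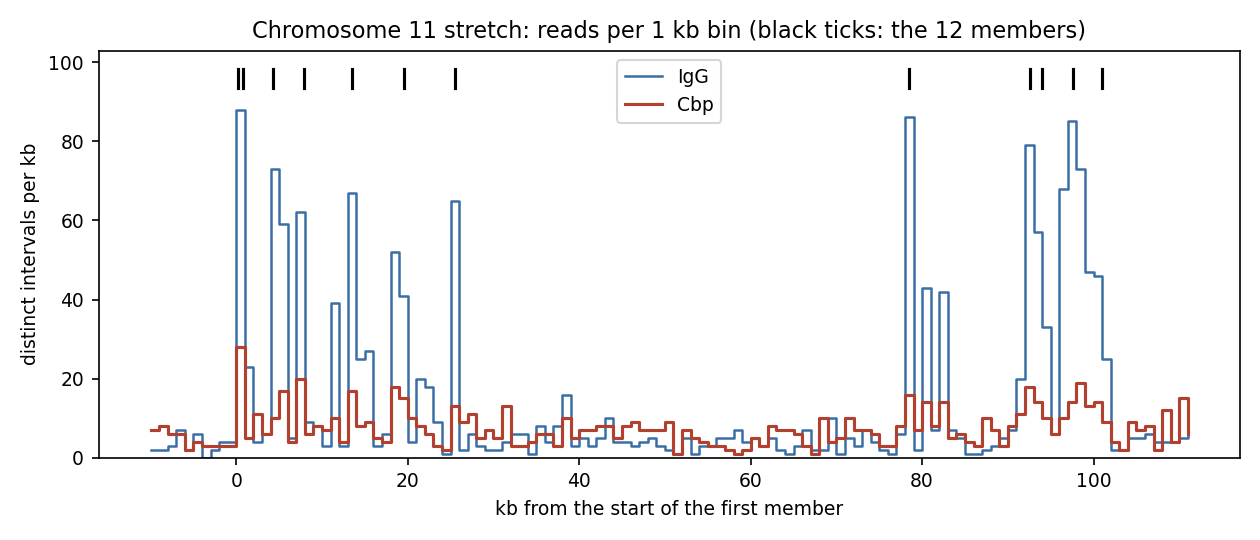
Distinct Cbp (red) and IgG (blue) intervals per 1 kb bin along the stretch on chromosome 11, by distance in kb from its first listed region; black ticks mark the 12 regions. The IgG line rises in sharp clusters at the ticks and at some places between them, and the Cbp line rises with it at a lower level.

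Of the other 6 IgG-higher regions, 5 carried a stack of identical reads in the control. They held 64 Cbp and 163 IgG distinct intervals in sum, and 108 Cbp and 1138 IgG reads, which took their ratio from 0.289 (0.213 to 0.388) to 0.0781 (0.0635 to 0.0953) when all copies were counted. The highest, chr5:114622943-114623344, had 42 Cbp and 518 IgG reads, with up to 60 copies of an interval in IgG and 7 in Cbp. Of its 19 distinct Cbp intervals, 17 were also in IgG. The remaining one, chr3:8246109-8246729, held 24 Cbp and 41 IgG intervals with hardly a copy in either, 0.430 times the control (0.249 to 0.729), where the exact binomial test gave an adjusted p of 0.0195. The groups among the 22 were set apart after their values were seen.

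The regions were not free of dense groups, although the densest parts of chromosomes had been left out. In 4 windows of 1 Mb there were still 10 or more of them, 56 regions (15%) in all, while 209 windows held a single one. Apart from the stretch on chromosome 11 these groups were on chromosome 8 from 19730777 to 19984995 (21 regions), chromosome 5 from 15004643 to 15197250 (13) and chromosome 4 from 146778599 to 146894041 (10). Their ratios were 1.18 (0.985 to 1.40), 1.03 (0.840 to 1.27) and 1.17 (0.923 to 1.48), each with an interval that includes 1, and none of their regions was called in either direction. None of the 32 Cbp-higher regions lay in a dense window.

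In the group on chromosome 4 the surroundings were deep in both libraries, at 11.5 Cbp and 8.24 IgG intervals per kb, and the regions rose only 2.63 times (2.20 to 3.14) above them in Cbp. In the group on chromosome 5 the surroundings had 3.42 and 2.96 per kb, near the autosomal mean, and the regions rose 8.65 times (7.07 to 10.6). The 3 groups had in common that both libraries rose inside the regions, in IgG by 2.32 to 7.10 times.

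Chromosome 8 had the highest density, with 43 regions or 0.326 per Mb (0.236 to 0.440) against 0.151 over all autosomes. It held 7 of the 32 Cbp-higher regions and none of the IgG-higher ones, and its summed ratio was 1.55 (1.36 to 1.77). Over all 374 regions 8.56% were Cbp-higher and 5.88% IgG-higher, and over the whole list 11.3% and 1.26%. Of the 43 regions on chromosome 8, 21 belonged to the dense group. The intervals of the densities treat regions as independent, which regions of a dense group need not be. Chromosome 14 had the lowest density, with 4 regions or 0.0320 per Mb (0.00871 to 0.0818). The lowest ratio, 0.423 (0.381 to 0.471), was that of chromosome 11. Chromosome 1, with 34 regions outside its dense stretch, stood at 1.67 (1.44 to 1.95) with 5 Cbp-higher regions. Such counts of calls on single chromosomes are small and were not tested against the shares over all regions.

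At the bounds of the rule, the last region below 4 Mb, on chromosome 8, held 10 Cbp and 13 IgG intervals, and the first one above it, on chromosome 17, held 13 and 3. On chromosome 1 the last kept region before 85 Mb and the first left out after it each held 13 and 6. The last one left out before 91 Mb held 12 and 4, and the next one kept held 9 and 7.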

How the data were processed

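The deposited read files give 1 line per read with chromosome, start and end, on mm9 per the submitters' processing notes. All but 23 Cbp and 51 IgG intervals were 200 bp long. The deposited peak list gives positions only. Not given in the sources used here: aligner, filters, extension step, peak caller. The members and the comparisons were chosen with earlier results of these data known.

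Mitochondrial reads were left out, which kept 9388703 distinct Cbp and 6886428 distinct IgG intervals, and a count of 0 allows 3 reads, which is 3.2e-05% and 4.36e-05% of these totals. Intervals were assigned to a region by their midpoint. First-block rows and later rows were merged separately, and Cbp and IgG counts of the 3020 regions entered an exact binomial test on the scaled share, with the smaller tail doubled (two-sided), Benjamini-Hochberg adjustment and a threshold of 0.05. The test was tested on simulated data. Surroundings were the bases 1 to 5 kb from the edges outside all deposited rows.

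The regions named were the 5 with most distinct Cbp intervals, the 5 with the largest scaled excess of each library among those past the threshold, the 3 with the highest share of copies among those with 50 or more Cbp reads and 1 at the median. Alternatives were all copies kept, each later block alone, other position bounds, subsets, scalings, thresholds, a minimum count, overlap in place of midpoints and wider surroundings. No mm9 genome or annotation was used here, so no genes or sequences are given. Tests ran in scipy 1.17.1 under Python 3.11.15, tables in pandas 2.3.3 and numpy 2.4.6, and plots in matplotlib 3.10.9.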

Additional observations from a re-analysis of the deposited data

How the results depend on the processing

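The summed Cbp-to-IgG ratio of 1.01 turned to 0.732 with all copies kept, 0.979 in the third block alone and 0.990 when any overlap of 1 bp counted, the last of which, like the second, has an interval that includes 1. It rose to 1.14 when scaled by the surroundings, 1.11 without the dense 1 Mb windows, 1.35 without the regions of 50 or more IgG intervals, and, both added after seeing the data, 1.07 without the 5 fullest regions and 1.11 without the stretch on chromosome 11. The 32 Cbp-higher regions became 52 with all copies kept and 9 at a threshold of 0.01, and were 23 to 48 under the other alternatives. The 22 IgG-higher regions became 10 without dense windows, 8 without regions of 50 or more IgG intervals and 10 without the stretch, each on fewer regions. The share of copies in Cbp (89.1%) was 90.0% in the third block, 90.1% without dense windows, 15.7% without regions of 50 or more IgG intervals and 35.9% without the 5 fullest. In IgG (93.0%) it was 93.4%, 94.2%, 40.4% and 51.0%, and 93.7% without the stretch. Both rises over the surroundings and the comparison with the first block (0.309, from 0.233 with all copies kept to 0.413) kept their direction under every alternative run, the IgG rise falling from 7.68 to 4.53 without regions of 50 or more IgG intervals. The doubled tail was chosen after the files were seen, and summing the less likely outcomes instead gave 34 and 22 calls. No paired analysis was possible because only 1 Cbp and 1 IgG library entered the comparison. A median of 15 Cbp and 7 IgG intervals per region bounds what single regions can show.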

Other observations

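The regions lay close to first-block rows in some cases, although none shared a base with one. Of the 374, 28 were within 1 kb and 89 within 10 kb of a first-block row, and the median distance was 99.1 kb. Among the 32 Cbp-higher regions 4 were within 10 kb, as were 10 of the 22 IgG-higher regions and 75 of the 320 others. The 89 near regions had a ratio of 0.796 (0.741 to 0.856) and the 285 others 1.07 (1.03 to 1.11). Of the 10 near IgG-higher regions, 9 belonged to the stretch on chromosome 11. Without that stretch the lower ratio near first-block rows was gone, at 1.17 (1.08 to 1.27) in 80 near regions and 1.10 (1.06 to 1.14) in the 282 others.

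Rows near the starts of chromosomes had been left out, and those near the far ends had not. Within 1 Mb of the last read of a chromosome lay 19 regions, or 1 per Mb over the 19 autosomes, against 0.151 per Mb over their whole length. These regions lay on only 8 of the 19 autosomes. On chromosome 2 there were 7 of them between 181651994 and 181667359, and on chromosome 19 there were 5 between 61275464 and 61341941. The 19 regions rose 11.8 times (10.3 to 13.4) over their surroundings in Cbp and 12.1 times (10.4 to 14) in IgG, with a Cbp-to-IgG ratio of 0.968 (0.847 to 1.11).

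Regions in which 3 or more rows were merged held more reads. Their median was 22 Cbp and 12 IgG intervals, against 14 and 6 where 2 rows were merged. They were also wider, and per kb they held fewer, at 33.9 Cbp and 23.0 IgG intervals against 51.2 and 37.8. The wider regions rose less over their surroundings, at 6.53 times (6.11 to 6.98) against 9.38 times (9.11 to 9.65) in Cbp. The regions of 2 rows included the fullest one, with 322 Cbp intervals, where the wider regions held at most 80.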
